A study of Mus musculus with 14 samples.

Results

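Plk1, Birc5 and Cdkn1b were followed in mouse embryonic fibroblasts (MEFs) on their way to pluripotency. They are 3 of the 26962 genes listed in any of the 14 deposited tables, and were picked by gene symbol. Whole-culture RNA was sequenced from MEFs of the OG2/129SV strain, grown in embryonic stem cell medium with LIF and infected with Oct4, Sox2, Klf4 and c-Myc, factors that every library shares. The cells carried in addition either Cdk9-DN, a Cdk9 construct that the labels do not describe further, or a control vector. Cdk9-DN cells gave 1 library at day 3 after infection and 2 libraries each at days 4, 5 and 10, and control cells gave 1 library at day 3 and 2 libraries each at days 4, 5 and 10. No label says that libraries of a group came from separate cultures, so p-values speak to the spread among libraries alone. No fibroblast without the 4 factors was analysed here, and Cdk9 itself is listed in 0 of the 14 tables, so the construct was not checked in these data.

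Cell division is driven by cyclin-dependent kinases and is held back by their inhibitors. Plk1 encodes polo-like kinase, which drives entry into mitosis, spindle assembly and cytokinesis, and Birc5 encodes survivin, the subunit of the chromosomal passenger complex that brings Aurora B kinase to centromeres. Both genes are transcribed mainly late in the cell cycle, and their promoters in mammals are bound by the DREAM and B-Myb complexes, often through CHR (cell cycle genes homology region) elements, while NF-Y binds CCAAT boxes. Cdkn1b encodes p27Kip1, which inhibits kinase complexes of cyclins E and A with Cdk2. Its protein is marked for destruction by the ubiquitin ligase subunit Skp2 and its gene can be activated by FoxO factors. P-TEFb, whose kinase is Cdk9, lets paused RNA polymerase II move into the gene body, and the title of the series names pause release as the step under study.

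The stretch before the start of each gene is shown because the 3 genes moved in opposite directions over the time course. The sequences are RefSeq's for build GRCm38.p6, and all 3 genes matched the promoter table. All 3 lie on the + strand, are written 5′ to 3′ and cover the 250 bases before the annotated start. Capitals mark CCAAT boxes. The coordinates are chr7:122159185-122159434 for Plk1, chr11:117848987-117849236 for Birc5 and chr6:134920151-134920400 for Cdkn1b.
Plk1: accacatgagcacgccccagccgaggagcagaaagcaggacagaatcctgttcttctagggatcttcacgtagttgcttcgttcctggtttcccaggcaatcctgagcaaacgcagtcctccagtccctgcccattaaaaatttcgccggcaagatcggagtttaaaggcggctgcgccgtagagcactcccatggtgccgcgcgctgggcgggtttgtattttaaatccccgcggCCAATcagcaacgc
Birc5: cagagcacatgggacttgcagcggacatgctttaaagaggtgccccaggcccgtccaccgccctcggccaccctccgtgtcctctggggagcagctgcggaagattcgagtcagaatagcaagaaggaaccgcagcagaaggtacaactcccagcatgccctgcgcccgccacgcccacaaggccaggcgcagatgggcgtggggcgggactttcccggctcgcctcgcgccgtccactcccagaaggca
Cdkn1b: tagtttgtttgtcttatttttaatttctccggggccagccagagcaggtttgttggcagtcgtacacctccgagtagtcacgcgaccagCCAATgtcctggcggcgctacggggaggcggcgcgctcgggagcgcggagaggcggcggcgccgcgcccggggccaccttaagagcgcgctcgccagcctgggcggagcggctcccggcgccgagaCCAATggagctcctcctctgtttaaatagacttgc

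4 short motifs were searched on both strands from 250 bases before to 50 bases after the start. They were the CHR element TTTGAA, the CCAAT box CCAAT, the E2F motif GCGGGAA and the FoxO motif GTAAACA, and no 2 of their matches overlapped in these genes. Positions are counted from the start, negative before it. Plk1 held 1 CCAAT box, at -14 to -10, and 1 CHR element, at 31 to 36, shown in capitals in this stretch of chr7:122159456-122159479.
Plk1 after the start: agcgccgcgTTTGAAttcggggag
Cdkn1b held 3 CCAAT boxes, which began at -161, -35 and 46, the last on the opposite strand (its complement in capitals) in chr6:134920437-134920450.
Cdkn1b after the start: caccgccatATTGG
The Birc5 window held none of the 4 motifs in these letters. Of the 32851 promoter windows in the table, 37.4% held a CCAAT box, 17.9% a CHR element, 4.6% the E2F motif and 3.65% the FoxO motif. A match describes letters and is not a binding site.

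In the deposited tables, whose coordinates are on the earlier build mm9, Plk1 (ENSMUSG00000030867) covers chr7:129302950-129313389, Birc5 (ENSMUSG00000017716) chr11:117710564-117717069 and Cdkn1b (ENSMUSG00000003031) chr6:134870418-134875531. All 3 are annotated as protein coding, and 0 other listed genes overlap any of them. Values are FPKM, fragments scaled to transcript length and to the fragments of the library, so levels can be set against each other between genes. A gene that a library does not list has no value there and was never taken as 0. Plk1 was listed in 14 of the 14 libraries and Birc5 in 13, all but Cdk9-DN day 5 replicate 2. Cdkn1b was listed in 11, all but Cdk9-DN day 4 replicate 2, Cdk9-DN day 5 replicate 2 and control day 5 replicate 1. All 3 passed the filter on low values (1 FPKM or more in 2 or more of the 12 libraries that were fitted, those of days 4, 5 and 10), as did 7460 genes in all.

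The 14 tables list 23236 to 24385 genes each, of which 4947 to 5292 reach 1 FPKM, and the 10 highest genes hold 33.4% to 76.1% of the summed FPKM. Read counts are not part of the tables. With the deposited lower and upper bounds read as 2 SD of counting on either side, a reading that was not tested, the counting error would be 2.42% to 4.53% of the value for Plk1, 3.62% to 6.32% for Birc5 and 3.16% to 5.58% for Cdkn1b. At day 10 the cultures differed in more than these genes. The 3 of 10 epithelial markers listed in every library summed to 58.5 to 65.2 FPKM in Cdk9-DN cells and 262 to 271 FPKM in control cells. The 5 of 10 pluripotency markers summed to 19.6 to 20.1 FPKM in Cdk9-DN cells and 46.1 to 54.0 FPKM in control cells, and the 2 of 10 fibroblast markers (Dcn and Lum) to 13.3 to 15.0 FPKM in Cdk9-DN cells and 3.85 to 4.42 FPKM in control cells. Fibroblast markers listed in fewer libraries differed less. At day 10, Thy1 stood at 18.0 and 16.8 FPKM in the Cdk9-DN libraries and 16.3 FPKM in 1 control library. Pdgfrb stood at 4.76 FPKM in 1 Cdk9-DN library and 3.11 FPKM in 1 control library. Of 8 macrophage markers 4 were listed in any library. At day 10, Cd68 stood at 8.70 FPKM in 1 Cdk9-DN library and 42.0 and 39.0 FPKM in the control libraries, Lyz2 at 0 in both Cdk9-DN libraries and at 0.0349 and 0.133 FPKM in the control libraries, and Cd14 at 0.814 and 1.39 FPKM in the Cdk9-DN libraries and 1.75 FPKM in 1 control library, while Ptprc was listed at 0 in the 1 library that lists it. Of 6 endothelial markers 4 were listed. At day 10, Cldn5 stood at 0.920 and 0.956 FPKM in the Cdk9-DN libraries and 3.77 and 3.598 FPKM in the control libraries, and Tek at 23.2 FPKM in 1 Cdk9-DN library and 13.9 FPKM in 1 control library. Kdr was at 0.134 FPKM in 1 Cdk9-DN library of day 10, and Cdh5 stayed at or under 0.0780 FPKM in all 14 libraries. Their part in the results below was not tested. In RNA of whole cultures, fewer cells of a kind and less RNA per cell cannot be told apart.

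Over the time course the mitosis genes Plk1 and Birc5 were lower at day 10 than at day 4 or 5 with either vector, and the brake gene Cdkn1b was higher. With Cdk9-DN the day 10 level of Cdkn1b was 22.3 ± 0.688 FPKM, against 45.1 ± 1.58 FPKM with the control vector (SD, n = 2 each). That of Birc5 was 43.2 ± 0.468 FPKM with Cdk9-DN, against 30.8 ± 4.40 FPKM with the control vector (SD, n = 2 each), and that of Plk1 was 21.1 ± 1.66 FPKM with Cdk9-DN, against 18.6 ± 0.594 FPKM with the control vector (SD, n = 2 each). At days 4 and 5 no difference between the vectors passed the test for any of the 3 genes.

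Plk1 stood at 58.6 FPKM in Cdk9-DN cells and 60.6 FPKM in control cells at day 3. At day 4 it was 39.5 and 43.4 FPKM in the Cdk9-DN libraries and 47.4 and 43.8 FPKM in the control libraries, and at day 5 it was 44.3 and 49.9 FPKM in the Cdk9-DN libraries and 50.9 and 52.2 FPKM in the control libraries. At day 10 it was 22.3 and 19.9 FPKM in the Cdk9-DN libraries and 19.0 and 18.1 FPKM in the control libraries. The libraries of the 2 vectors did not overlap at days 4, 5 and 10. Cdk9-DN lay below control at days 4 and 5 and above it at day 10. It also lay below control at day 3, where overlap cannot occur because neither vector has a replicate. With at most 2 libraries per group, such separation can arise without an effect, here and for the genes below. Its share over all genes was not counted. The differences at days 4, 5 and 10 did not pass the test, and day 3 was not tested, so a change of direction was not shown. Every day 10 library lay below every earlier library, and the day 3 libraries were the highest. Ranked by mean, Plk1 was highest at day 3, then day 5, day 4 and day 10 within each vector. In that order Cdk9-DN cells at day 5 and control cells at day 4 overlapped, while the other neighbouring groups did not.

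Birc5 stood at 107 FPKM in Cdk9-DN cells and 98.4 FPKM in control cells at day 3. At day 4 it was 75.8 and 76.3 FPKM in the Cdk9-DN libraries and 69.1 and 75.8 FPKM in the control libraries. At day 5 it was 88.0 FPKM in the 1 Cdk9-DN library that lists it and 93.0 and 98.9 FPKM in the control libraries. Ranked by mean, Birc5 had the same order of days as Plk1, but in control cells day 3 lay between the libraries of day 5. Its lower level at day 4 than at day 5 did not pass the test with either vector, and the vectors overlapped at day 4. At day 10 it was 43.6 and 42.9 FPKM in the Cdk9-DN libraries and 33.9 and 27.7 FPKM in the control libraries, so that both Cdk9-DN libraries lay above both control libraries.

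Cdkn1b stood at 12.3 FPKM in Cdk9-DN cells and 12.1 FPKM in control cells at day 3. At day 4 it was 16.9 FPKM in the 1 Cdk9-DN library that lists it and 16.8 and 16.5 FPKM in the control libraries, and at day 5 it was 17.1 FPKM in the 1 Cdk9-DN library and 19.8 FPKM in the 1 control library that list it. Within each vector its value was thus higher at each later day, but day 5 against day 4 did not pass the test with either vector. In Cdk9-DN cells that difference was 0.02 in log2 and reversed under quantile normalization. At day 10 it was 21.8 and 22.8 FPKM in the Cdk9-DN libraries and 46.2 and 44.0 FPKM in the control libraries. The 2 control libraries of day 10 stood apart from the others that list it, and the Cdk9-DN libraries of day 10 lay above the 7 libraries of days 3 to 5 that list the gene.

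**Figure D1:**
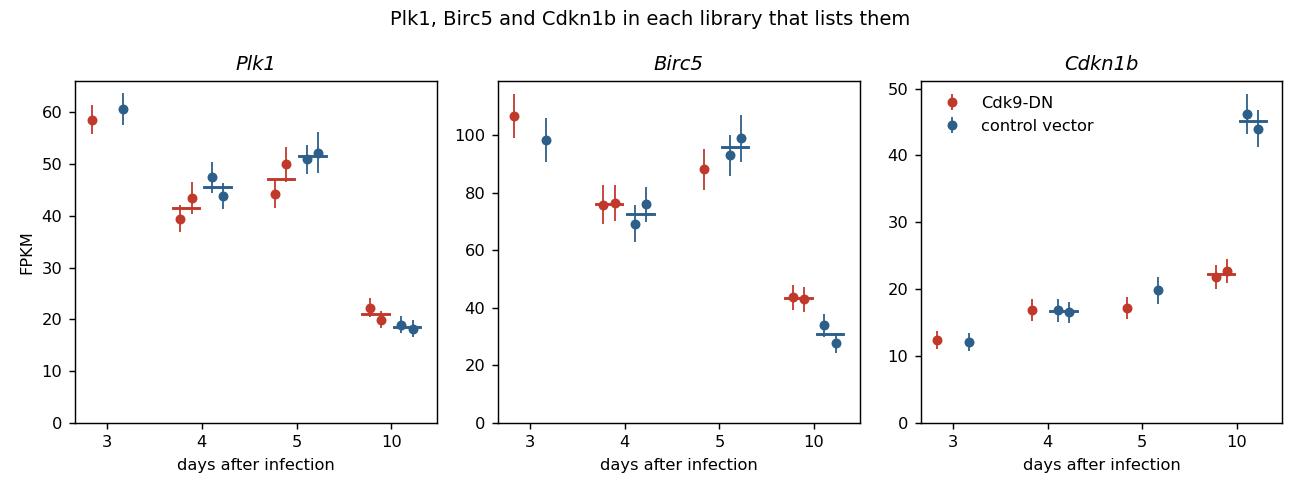
FPKM of Plk1, Birc5 and Cdkn1b (vertical axis) by days after infection (horizontal axis), Cdk9-DN cells in red and control vector cells in blue; points are libraries, vertical lines the deposited bounds and horizontal lines the mean of 2 libraries. Plk1 and Birc5 are lowest at day 10 with either vector, and Cdkn1b is highest in control cells of day 10, at 46.2 and 44.0 FPKM.

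Differences were tested on log2(FPKM + 1) with limma, in 1 fit across all genes and the 12 libraries of days 4, 5 and 10, and a gene was called at a Benjamini-Hochberg adjusted p under 0.05. Folds of low genes are understated on this scale. Where a group has 1 library with a value, that library is assumed to vary like the others. At day 3, with 1 library per vector, there is no test. The ratio of Cdk9-DN to control there was 0.966 for Plk1, 1.08 for Birc5 and 1.02 for Cdkn1b.

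In the effect of Cdk9-DN at day 4, 0 of the 3 genes passed, where 0.0336% of the 5950 genes tested were called, and at day 5 again 0 of 3 passed, where 0.169% of 5902 were. At an unadjusted p under 0.05 in limma the count was 0 at either day too, beside 388 of 5950 genes at day 4 and 500 of 5902 at day 5. The 95% intervals of the log2 difference, Cdk9-DN minus control, ran from -0.33 to 0.06 at day 4 and from -0.33 to 0.07 at day 5 for Plk1. They ran from -0.17 to 0.31 at day 4 and from -0.41 to 0.17 at day 5 for Birc5, and from -0.16 to 0.19 at day 4 and from -0.40 to 0.0029 at day 5 for Cdkn1b. Differences of up to these sizes could thus have been present at these days.

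At day 10, 2 of the 3 genes were called, Birc5 and Cdkn1b, where 28.9% of the 5740 genes tested were called. Cdkn1b, the inhibitor of cyclin E and A kinases, was lower in Cdk9-DN cells by a log2 difference of -0.98 (SE 0.052, adjusted p = 9.05e-04), and 6.88% of the tested genes had a lower value. Its call held in each fit that leaves out 1 library. Birc5, the passenger complex subunit, was higher in Cdk9-DN cells by 0.48 (SE 0.097, adjusted p = 0.0148), with 16.2% of the tested genes above it. That call was lost without Cdk9-DN day 10 replicate 1 (0.47, adjusted p = 0.0676) or without replicate 2 of the same group (0.49, adjusted p = 0.0582). Plk1 gave 0.17 (95% interval -0.02 to 0.37, adjusted p = 0.170), so a difference of the size seen for Birc5 lies outside its interval, while a small one does not. The epithelial and pluripotency markers and the fibroblast markers Dcn and Lum, summed above, differed between the same libraries, while the Thy1 values lay close together.

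Averaged over days 4, 5 and 10, only Cdkn1b of the 3 genes was called (-0.39, adjusted p = 0.0107), where 10.9% of 5343 genes were. The Cdkn1b difference was 0.02 at day 4, -0.20 at day 5 and -0.98 at day 10, with only the last called. Its average is thus mostly the day 10 difference and does not show an effect at each day. For the other 2 genes the averages did not pass. Plk1 gave -0.03 (adjusted p = 0.743) and Birc5 0.14 (adjusted p = 0.200), and the Birc5 average was called without control day 10 replicate 1 (0.19, adjusted p = 0.0489).

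**Figure D2:**
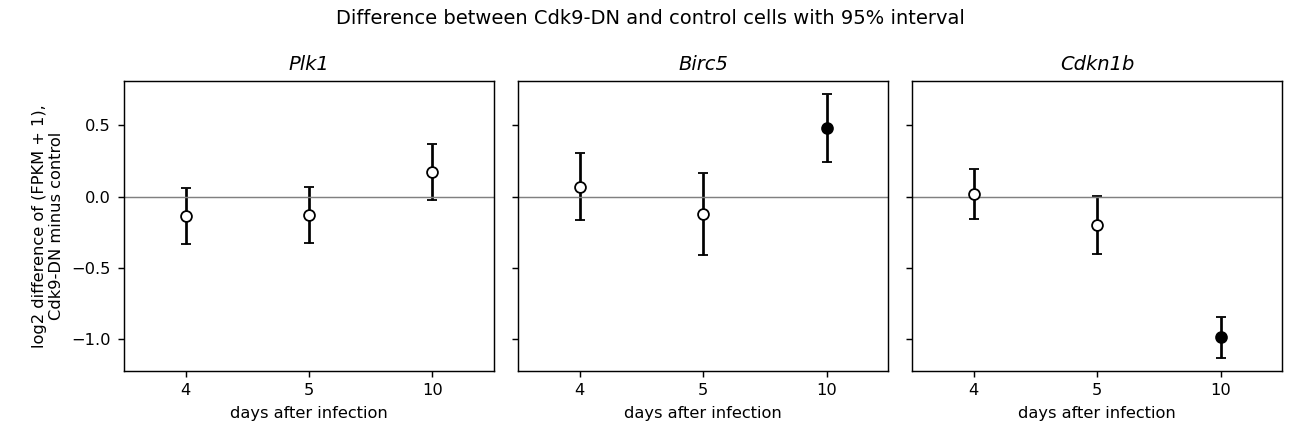
Log2 difference of FPKM + 1, Cdk9-DN minus control (vertical axis), at days 4, 5 and 10 after infection (horizontal axis) for each gene; bars are 95% intervals and filled points have an adjusted p under 0.05. Cdkn1b lies at -0.98 and Birc5 at 0.48 at day 10, and the earlier points are open.

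Whether the effect of Cdk9-DN differed between days was tested as the difference of the differences. For Cdkn1b the day 5 effect rests on 1 library of each vector. Its day 4 effect rests on 1 Cdk9-DN library and 2 control libraries. For Cdkn1b the effect at day 10 was below that at day 4 by a log2 value of -1.003 (SE 0.0825, adjusted p = 0.00533), where 15.7% of 5523 genes were called, and below that at day 5 by -0.79 (adjusted p = 0.0115), where 16.2% of 5485 were. For Birc5 the effect at day 10 exceeded that at day 5 by 0.60 (adjusted p = 0.0468). This call rests on 1 Cdk9-DN library at day 5 and was lost in 9 of the 11 fits that leave out 1 library, with values of 0.46 to 0.74 over all such fits. Against day 4 the Birc5 difference was 0.41 (adjusted p = 0.0987), and it was called at 0.55 (adjusted p = 0.0234) without control day 10 replicate 1. For Plk1 the effect at day 10 exceeded that at day 4 by 0.31 (adjusted p = 0.122) and that at day 5 by 0.30 (adjusted p = 0.132), neither of which passed.

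Within the Cdk9-DN cells, day 10 against day 4, all 3 genes were called, where 38% of 5816 genes were. Plk1 was lower by a log2 difference of -0.94 (adjusted p = 1.66e-04) and Birc5 by -0.80 (adjusted p = 0.00128), and Cdkn1b was higher by 0.38 (adjusted p = 0.0137). The Cdkn1b call was lost without Cdk9-DN day 10 replicate 2 (0.35, adjusted p = 0.0569) and under quantile normalization (0.22, adjusted p = 0.0734). Within the control cells, day 10 against day 4, all 3 were called too, where 50% of 5814 genes were. There 6.48% of the tested genes lay below Plk1 and 6.78% below Birc5, while Cdkn1b was higher by 1.38 (adjusted p = 1.00e-04), with 10.1% of the genes above it.

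Day 10 against day 5 gave the same directions. In Cdk9-DN cells, where 34.9% of 5783 genes were called, all 3 passed, with Plk1 at -1.12 (adjusted p = 8.96e-05), Birc5 at -1.01 (adjusted p = 0.00127) and Cdkn1b at 0.36 (adjusted p = 0.0166). The last was lost without Cdk9-DN day 10 replicate 2 (0.33, adjusted p = 0.0679). In control cells, where 49.8% of 5798 genes were called, Plk1 gave -1.43 (adjusted p = 1.41e-05), Birc5 -1.61 (adjusted p = 4.47e-05) and Cdkn1b 1.15 (adjusted p = 3.01e-04). Day 5 against day 4, 0 of the 3 genes passed in Cdk9-DN cells, also at an unadjusted p under 0.05, where 3.28% of 5906 genes were called, with Plk1 at 0.18, Birc5 at 0.21 and Cdkn1b at 0.02. In control cells, where 5.02% of 5951 were, again 0 passed in limma. Birc5 and Cdkn1b had an unadjusted p under 0.05 there, as did 1206 of 5951 genes (1064 of 5906 in Cdk9-DN cells). The control values were 0.17 for Plk1, 0.40 for Birc5 (adjusted p = 0.0814) and 0.24 for Cdkn1b. The Birc5 value was called without control day 10 replicate 1 (adjusted p = 0.0319) or replicate 2 (adjusted p = 0.0321), libraries that enter this difference only through the shared spread.

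Ratios within a library do not depend on its scaling. The ratio of Cdkn1b to Plk1 was 0.211 in Cdk9-DN cells and 0.200 in control cells at day 3, and 0.387 in 1 Cdk9-DN library and 0.379 in 1 control library at day 5. At day 4 it was 0.428 in 1 Cdk9-DN library and 0.355 and 0.377 in the control libraries. With either vector the Cdkn1b transcript was thus below the Plk1 transcript in the 7 libraries up to day 5 that list both. At day 10 the ratio was 0.980 and 1.14 in the Cdk9-DN libraries and 2.44 and 2.43 in the control libraries. The Cdkn1b transcript was thus near the level of the Plk1 transcript with Cdk9-DN and above it with the control vector. The ratio sets the 2 transcripts side by side and is not that of an inhibitor to its target. The ratio of Cdkn1b to Birc5 at day 10 was 0.501 and 0.531 in the Cdk9-DN libraries and 1.36 and 1.59 in the control libraries. The ratio of Birc5 to Plk1 stayed between 1.46 and 2.15 in the 13 libraries that list both genes, with both day 10 Cdk9-DN libraries (1.96 and 2.15) above both control libraries (1.79 and 1.53).

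**Figure D3:**
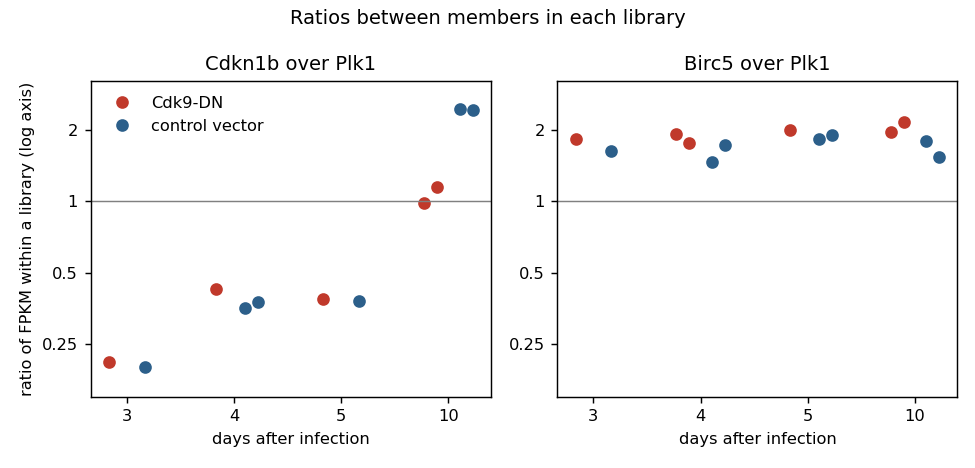
Ratio of FPKM within each library (vertical log axis) by days after infection (horizontal axis), Cdk9-DN in red and control vector in blue, 1 point per library. Cdkn1b over Plk1 reaches 2.44 and 2.43 in control libraries at day 10 and 0.980 and 1.14 in Cdk9-DN libraries, while Birc5 over Plk1 stays between 1.46 and 2.15.

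Other genes of mitosis were looked at through a list of 40 genes of mitotic entry, spindle and exit, of which 15 were listed in any library, 15 passed the filter and 5 could be tested for the effect at day 10. Aurkb, Cdca8, Cdk1 and Ccnb1, which work with Birc5 and Plk1, are listed in 0 libraries. Incenp, the scaffold of the passenger complex that holds survivin, stood at 25.1 and 26.7 FPKM in the Cdk9-DN libraries of day 10 and 19.0 and 18.2 FPKM in the control libraries, with both Cdk9-DN libraries above both controls. It was the 1 gene of the 5 that was called higher (0.46, adjusted p = 0.00505), where 14.5% of all tested genes were called higher, and 0 were called lower, also at an unadjusted p under 0.05. Over all genes tested, 14.4% were called lower, and 2297 of 5740 had an unadjusted p under 0.05 in either direction. The kinetochore motor Cenpe (0.17), the cytokinesis kinesin Kif20a (0.31) and the kinetochore subunit Ndc80 (0.35) did not pass. Kif20a and Ndc80 are each listed in 1 library per vector at day 10. Ube2c, the ubiquitin-conjugating enzyme of the anaphase-promoting complex, did not pass either (-0.24, adjusted p = 0.153), and was called lower without control day 10 replicate 2 (-0.39, adjusted p = 0.0226). The Incenp call was lost in a fit on the day 10 groups alone (adjusted p = 0.0591). The median over the 5 was 0.31, the value of Kif20a, beside 0.00 over all genes tested.

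Day 10 against day 4, 4 of the 5 tested mitosis genes were called lower in Cdk9-DN cells, where 13.5% of all genes were, with a median of -0.63, beside 0.11 over all genes, and 4 of the 5 tested were called lower in control cells, where 21.8% were, with a median of -0.67, beside 0.07. The tested genes were not the same in both. Kif20a is listed in 1 library per vector at day 10, and Kif11 and Ube2c in 1 control library each at day 4. Kif20a was lower by a log2 difference of -0.80 in Cdk9-DN cells and -1.41 in control cells. Incenp gave -0.63 in Cdk9-DN cells and -1.08 in control cells, and Ube2c gave -0.53 in each. The remaining calls were Cenpe in Cdk9-DN cells (-0.67) and the spindle motor Kif11 in control cells (-0.67). With no filter on low values the control calls of Kif11 (adjusted p = 0.0582) and Ube2c (adjusted p = 0.0546) were lost. Genes that could not be tested went both ways. From day 4 to day 10 in control cells, Ccnb2 went from 32.1 to 38.1 FPKM. Mad2l1 went from 34.7 to 21.3 FPKM there, Bub3 from 60.6 to 43.4 FPKM and Espl1 from 11.3 to 5.53 FPKM. In Cdk9-DN cells Bub3 went from 54.1 to 58.0 FPKM, Sgol1 from 4.15 to 4.22 FPKM and Mad2l1 from 35.7 to 24.9 FPKM. Each value is 1 library or a mean of 2.

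Of 20 brake genes other than Cdkn1b, 13 were listed in any library, 12 passed the filter and 4 could be tested at day 10. All 4 tested were called lower in Cdk9-DN cells (median -0.65, beside 0.00 over all genes), where 14.4% of all tested genes were called lower. The antiproliferative transcription coregulator Btg1 stood at 11.6 and 12.4 FPKM in the Cdk9-DN libraries and 19.6 and 19.7 FPKM in the control libraries (-0.67, adjusted p = 0.00469). The Cdk4 and Cdk6 inhibitor gene Cdkn2b stood at 18.2 and 18.9 FPKM in the Cdk9-DN libraries and 30.6 and 28.0 FPKM in the control libraries (-0.63, adjusted p = 0.00536). For both genes each Cdk9-DN library lay below each control library. Btg2, a relative of Btg1, stood at 37.7 FPKM in 1 Cdk9-DN library and 51.8 and 49.3 FPKM in the control libraries (-0.41, adjusted p = 0.00342). Cdkn2d, another inhibitor of Cdk4 and Cdk6, stood at 8.54 FPKM in 1 Cdk9-DN library and 17.4 and 15.5 FPKM in the control libraries (-0.87, adjusted p = 0.0220), a call lost without control day 10 replicate 1 (adjusted p = 0.0858) or replicate 2 (adjusted p = 0.0503), with the replicate block (-0.83, adjusted p = 0.0507) and with no filter on low values (adjusted p = 0.0784). Of the brake genes with a day 10 value for both vectors that could not be tested, Cdkn2c, a further Cdk4 and Cdk6 inhibitor gene, stood at 3.30 FPKM in 1 Cdk9-DN library and 1.64 FPKM in 1 control library. Lin9, a subunit of the DREAM and B-Myb complexes, stood at 4.12 FPKM in 1 Cdk9-DN library and 3.48 FPKM in 1 control library, and Rb1 was listed at 0 in all 4 libraries. At day 4, 0 of 5 tested brake genes were called by limma (2 at an unadjusted p under 0.05, 1 of them higher), and at day 5, 0 of 6 (1 at an unadjusted p under 0.05). Over all genes, 388 of 5950 at day 4 and 500 of 5902 at day 5 had an unadjusted p under 0.05. Cdkn1a, which encodes the inhibitor p21, is listed in 0 libraries.

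In control cells, day 10 against day 4, Btg2 (0.77) and Btg1 (0.72) were called higher, as Cdkn1b was, and Cdkn2b was not called (-0.07, adjusted p = 0.566). In Cdk9-DN cells the same comparison gave 0.11 for Btg2, 0.08 for Btg1 and 0.32 for Cdkn2d, none of which passed, and Cdkn2b was called lower (-0.80, adjusted p = 0.00265). Cdkn1b was thus called higher in both vectors, while the tested brake genes differed among themselves.

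Of 19 partners and regulators of p27, 7 were listed in any library, 5 passed the filter and 4 could be tested at day 10. Skp2, the F-box protein that targets p27 for destruction, was called higher in Cdk9-DN cells, at 18.1 and 17.2 FPKM in the Cdk9-DN libraries and 9.47 FPKM in the 1 control library that lists it (0.83, adjusted p = 9.14e-04). Skp2 could not be tested without that control library. Day 10 against day 4, Skp2 was higher in Cdk9-DN cells (0.55, adjusted p = 0.00113) and lower in control cells (-0.36, adjusted p = 0.0101), and the difference between these changes was 0.90 (adjusted p = 0.00337). Jun, an AP-1 transcription factor, was lower in Cdk9-DN cells at day 10, at 23.0 and 21.1 FPKM in the Cdk9-DN libraries and 29.8 and 28.0 FPKM in the control libraries (-0.37, adjusted p = 0.00856), a call lost in a fit on the day 10 groups alone (adjusted p = 0.0889). Foxo1, a FoxO factor, did not pass (-0.14, adjusted p = 0.273), nor did Cks1b, the Skp2 cofactor (0.17, adjusted p = 0.753).

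**Figure D4:**
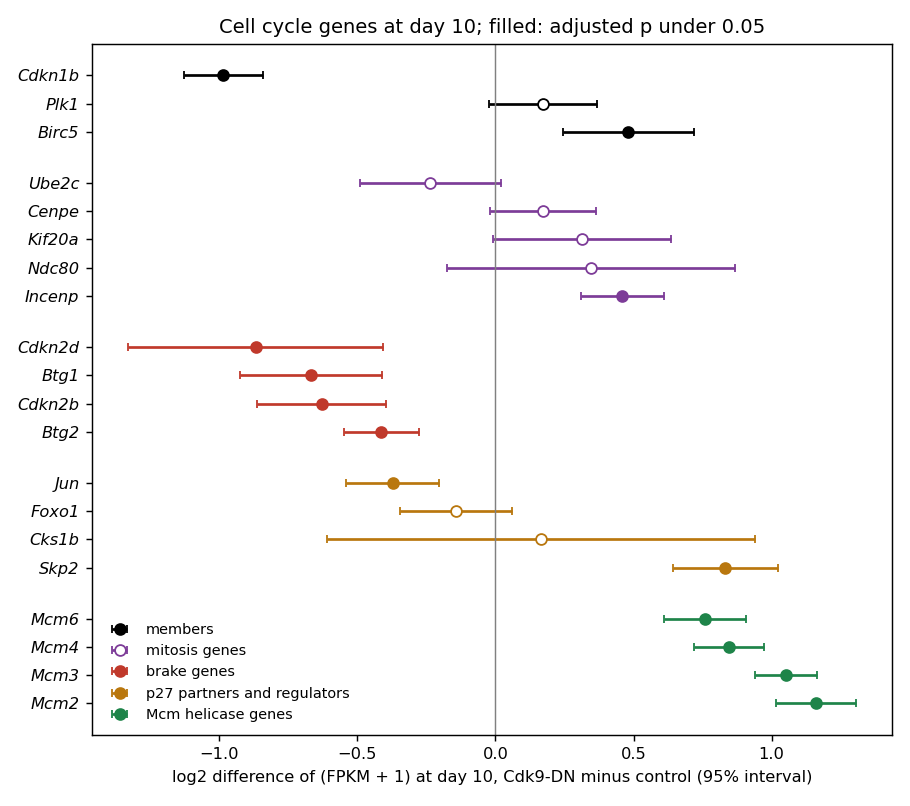
Log2 difference of FPKM + 1 at day 10, Cdk9-DN minus control (horizontal axis), for the 3 genes, the tested genes of 3 lists and the tested Mcm genes (rows); bars are 95% intervals and filled points have an adjusted p under 0.05. Cdkn1b and the 4 brake genes lie below 0, and the 4 Mcm genes lie between 0.76 and 1.16.

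Of the subunits of the Mcm helicase, which unwinds DNA in S phase, 4 could be tested at day 10. The log2 difference, Cdk9-DN minus control, was 1.16 for Mcm2, 1.05 for Mcm3, 0.85 for Mcm4 and 0.76 for Mcm6, and each of the 4 was called higher, where 14.5% of the 5740 genes tested were. Mcm2 stood at 45.8 and 42.2 FPKM in the Cdk9-DN libraries and 19.3 and 19.0 FPKM in the control libraries, with both Cdk9-DN libraries above both controls. The effect of Cdk9-DN at day 10 on Birc5 (0.48) and Plk1 (0.17) was below each of these values; the difference between genes was not tested.

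The genes whose level was most alike across libraries were taken from those listed wherever the member is, whose highest group mean reached 5 FPKM. Unnamed gene models and numbered pseudogenes were left out. Birc5, Incenp, Kif20a, Kif11, Ube2c and Cenpe are each missing from a library that lists Plk1, so they could not be compared with it. The measure is Pearson's r of log2(FPKM + 1), a description over libraries grouped by day and vector, with no test. Over 12 libraries and 927 genes, Plk1 was most like Cxcl14 (r = 0.984), Sostdc1 (0.983), Tmem98 (0.977), Zcchc3 (0.976) and Gas1 (0.974), and least like Utf1 (-0.984), Sfn (-0.982) and Perp (-0.980). Over 11 libraries and 970 genes, Birc5 was most like Sostdc1 (0.981), Nkrf (0.975), Vps26b (0.974), Nov (0.973) and Etf1 (0.967), and least like Aldoart1 (-0.986), Sfn (-0.982) and Cnfn (-0.973). Over 9 libraries and 1050 genes, Cdkn1b was most like Psors1c2 (0.990), Lypd5 (0.989), Gcnt3 (0.985), Krt18 (0.985) and Emb (0.981), and least like Fadd (-0.984), Ywhag (-0.979) and Ccl2 (-0.975). Sostdc1 stood on the high side and Sfn on the low side for both mitosis genes, and Krt18 is a keratin of simple epithelia.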

How the data were processed

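The authors deposited 1 table of FPKM per library, with lower and upper bounds. Reads were handled with CASAVA 1.8.2, TopHat2 2.0.10 and Cufflinks 2.2.1, and the builds are named mm9 and NCBIM37, per the submitters' processing notes. The aligner's settings and read counts are not given in the sources used here, and so depth is unknown beyond the bounds. Entries of 16 identifiers with several rows were summed, and 1 failed entry was left out. Genes that reached 1 FPKM in 2 or more of the 12 fitted libraries (days 4, 5 and 10) were tested on log2(FPKM + 1) with limma 3.58.1 (R 4.3.3), as 6 group means, each gene on the libraries that list it, with a variance trend, at least 2 residual degrees of freedom and two-sided Benjamini-Hochberg adjustment over all genes tested. The fit was tested on simulated data. The genes followed, the lists, the named genes (each tested gene of a list called in a comparison described; the 5 genes most like and 3 least like each member) and the tests were chosen with earlier results of these data known. Alternatives were another pseudocount, filter, scaling or variance model, a replicate block, the day 3 pair added and each library left out. Gene types and promoters came from GENCODE M21 and RefSeq. Tables were read with Python 3.11.15 and pandas 2.3.3. 1 gene of the S phase list is not reported here, so no count is given over that list.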

Additional observations from a re-analysis of the deposited data

Results flagged for a closer look

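The effect of Cdk9-DN differed between days in 3 tested differences, which is why they are listed here. For Cdkn1b the effect at day 10 was lower than at day 4 by a log2 value of -1.003 and lower than at day 5 by -0.79, and all day 10 Cdk9-DN libraries (2 of 2) lay below both control libraries. For Birc5 the effect at day 10 exceeded that at day 5 by 0.60, a call that was lost under several of the other settings given in the next section. Groups here hold at most 2 libraries, so no library was examined as standing apart from its group. For Cdkn1b, Cdk9-DN at days 4 and 5 and control at day 5 have 1 library each with a value. For Birc5, Cdk9-DN at day 5 has 1.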

How the results depend on the processing

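Of 741 values that alternatives gave for 36 results on the 3 genes, 714 kept their direction and their side of the threshold, 22 lost a call, 4 gained one and 1 reversed. The Birc5 effect at day 10 kept its value and lost its call with no filter on low values (0.48, adjusted p = 0.0503) and in a fit on the groups of the contrast only (0.48, adjusted p = 0.121), and ran from 0.34 to 0.62 with 1 library left out. For its difference between days 10 and 5 the call was lost with a pseudocount of 0.1 (0.62), no filter (0.60), no variance trend (0.60), the replicate block (0.61) and the contrast-only fit (0.60), and leaving out 1 library gave 0.46 to 0.74. Leaving out 1 library gave 0.27 to 0.55 for the Birc5 difference between days 10 and 4, 0.10 to 0.19 for its averaged effect and 0.33 to 0.47 for control day 5 against day 4. In Cdk9-DN cells, Cdkn1b at day 10 lost its call against day 5 with the replicate block (0.37, adjusted p = 0.0502; 0.33 to 0.39 with 1 library left out) and against day 4 under quantile normalization (0.22; 0.35 to 0.41 with 1 library left out), and its uncalled day 5 against day 4 value reversed to -0.0905 under quantile normalization. Cks1b, not called at day 10, gave -0.20 to 0.53 with 1 library left out, below 0 without control day 10 replicate 1 (-0.04) or Cdk9-DN day 10 replicate 1. The cause of these changes was not tested, except that fits without a filter test more genes and fits on fewer groups use fewer libraries.

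The number of all genes called for the effect at day 10, 1658, was 357 in the contrast-only fit and 976 to 1535 with 1 library left out. It was 1 to 18 at day 4, against 2, and 3 to 24 at day 5, against 10, over all alternatives. Day 5 against day 4 gave 38 to 230 calls in Cdk9-DN cells, against 194, and 26 to 305 in control cells, against 299. The averaged effect gave 240 to 585, against 585. The difference of the effect between days 10 and 4 gave 547 to 764 with 1 library left out and 396 to 879 otherwise, against 869, and that between days 10 and 5 gave 525 to 790 with 1 library left out and 385 to 885 otherwise, against 887. For day 10 against day 5 and day 4, the lowest counts came with genes listed in all 12 libraries, at 1058 (against 2019) and 1141 (against 2208) in Cdk9-DN cells and at 1485 (against 2885) and 1498 (against 2907) in control cells. The counts of 396 and 385 came with the same restriction. It leaves 3491 genes, where the main fit tested 5783 to 5816 for day 10 against day 5 and day 4. The counts are thus not out of the same number of genes. Restriction to genes listed in all 12 libraries gave values for Plk1 only of the 3 genes. Same-numbered libraries of the vectors at 1 day did not deviate together (correlations of -0.02 to 0.06, and -0.14 to 0.11 over all pairs of groups). No label says what same-numbered libraries share, and with 1 pair per group these correlations cannot decide it. The replicate block changed no call on the 3 genes other than those given, and ended that of Cdkn2d at day 10 (-0.83). Median-of-ratios scaling shifted the median gene, day 10 against day 4, by -0.14 in Cdk9-DN cells and -0.11 in control cells, and quantile normalization by -0.14 in Cdk9-DN cells and -0.15 in control cells. The precision is limited by 2 libraries per group, by missing entries and by the unknown read depth.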
